A study of Mus musculus with 8 samples.

Results

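The genes described here encode lysosomal enzymes, lysosomal membrane proteins and autophagy proteins. They are 35 named genes of the 48440 in the deposited count table, picked by gene symbol and arranged in 5 classes: 7 proteases, 10 glycosidases (with a sulfatase and an activator precursor), 7 membrane proteins (with the luminal sterol carrier Npc2), 5 proton pump subunits and 6 autophagy genes. The 35 genes were chosen with earlier results of these data known. All 35 were found and all 35 passed the filter on low counts, which left 17739 genes for testing.

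The study sequenced polyadenylated RNA of mouse embryonic stem cells (pluripotent cells derived from the blastocyst) on the 129/Ola background. There were 4 groups of 2 libraries: β-catenin knock-out cells (CTNNB1-/-) with CHIR99021, knock-out cells with DMSO, parental cells (CTNNB1+/+) with CHIR99021 and parental cells with DMSO. CHIR99021, an inhibitor of the kinase GSK3, was given at 3 μM, and its vehicle DMSO at 0.3 μl/ml, each for 72 hours. All 4 groups grew without feeder cells on gelatin in DMEM with 10% fetal bovine serum, so every group, controls included, was in serum. The knock-out and the parental cells are single lines as far as the labels say, so that genotype and line cannot be told apart. The labels also do not say whether the 2 libraries of a group came from separate cultures, so that the p-values rest on a spread between libraries that may be technical.

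Lysosomes are acidic organelles that break down proteins, glycans and lipids delivered by endocytosis and by autophagy. Soluble hydrolases work in their lumen, a proton pump (the V-ATPase) acidifies that lumen, and heavily glycosylated membrane proteins line and protect the boundary. In autophagy a membrane sac encloses cytoplasm and fuses with the lysosome. Many lysosomal genes carry the E-box-like motif CACGTG near their start site, which the MiT/TFE transcription factors, TFEB among them, can bind. GSK3 is known both as the kinase that marks β-catenin for destruction and as a kinase that acts on TFEB, and β-catenin works in the nucleus with TCF/LEF factors, whose core motif is CTTTGAT.

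The targeted gene checked the labels. Ctnnb1 (chromosome 9, 120929216 to 120960507, GRCm38) had 8.7 and 9.42 CPM (counts scaled to a library total of 1000000) in knock-out cells with CHIR99021 and 7.98 and 10.7 CPM in knock-out cells with DMSO, against 813.4 and 843.5 CPM in parental cells with CHIR99021 and 887.5 and 905.6 CPM in parental cells with DMSO. Libraries held 23650572 to 27680649 estimated counts. All 8 markers of embryonic stem cells were above 1 CPM in every group, at 5213 to 5887 CPM summed. The 6 macrophage markers, for a cell type rich in lysosomes, summed to 0.502 to 0.568 CPM in knock-out cells with CHIR99021, 0.458 to 0.471 with DMSO, 0.23 to 0.585 in parental cells with CHIR99021 and 0.472 to 0.581 with DMSO; Adgre1 and Lyz2 were at 0 in every library.

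The summed CPM of marker lists of other cell types moved with CHIR99021 in the parental cells, in part through few genes. The 6 markers of primitive streak or mesoderm summed to 42.5 to 44.4 CPM with CHIR99021, against 3.32 to 3.39 CPM with DMSO, with Msgn1 at 0. Eomes (30.5 and 30.4 CPM against 1.42 and 1.54 CPM) and T (12.3 and 10.4 CPM against 0.472 and 0.207 CPM) carried this rise. The libraries of Mixl1, Kdr and Mesp1 overlapped between the treatments. The 8 markers of primitive or extraembryonic endoderm summed to 99.3 to 102.0 CPM against 143.4 to 147.0 CPM, most of it Lama1, and the 6 neural markers to 54.2 to 54.3 CPM against 110.5 to 112.9 CPM, with Neurog2 at 0. Of the endoderm markers Lama1, Sox7 and Dab2 were lower with CHIR99021, while Pdgfra, Gata6 and Sox17 were higher, at 2.15 CPM or less. The 6 fibroblast markers summed to 20.4 to 22 CPM against 9.4 to 11.1 CPM, with Dcn and Lum at 0. Most of this rise was in Pdgfrb (12.9 and 13.6 CPM against 4.29 and 5.19 CPM), while the libraries of Col1a1 overlapped. The 6 trophoblast markers, most of it Tfap2c, summed to 39.5 to 42.3 CPM against 47.4 to 50.4 CPM. In the knock-out cells the streak or mesoderm markers summed to 2.7 to 2.88 CPM with CHIR99021 and 3.66 CPM with DMSO, the endoderm markers to 154.6 to 162.3 CPM and 158.4 to 165.2 CPM, the neural markers to 92.1 to 93.5 CPM and 108.9 to 116.5 CPM, the fibroblast markers to 15.7 to 17.2 CPM and 13.3 to 14.8 CPM, and the trophoblast markers to 40.1 to 42.9 CPM and 50.8 to 51.3 CPM. The part of other cell types in the results below was not tested, and in such bulk samples fewer cells of a type and less RNA per cell cannot be told apart.

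Levels can be compared between genes only per length. In CPM per kilobase of the principal transcript, Lamp1, a main glycoprotein of the lysosomal membrane, was highest in all 4 groups, at 148.9 in knock-out cells with CHIR99021, 137.6 in knock-out cells with DMSO, 164.0 in parental cells with CHIR99021 and 151.7 in parental cells with DMSO. Ctsd and Psap came next. In parental cells with DMSO they had 76.6 and 75.7 CPM per kilobase and their 2 libraries overlapped, so that their order is not resolved there. The lowest were Naglu, Sgsh and Ctsh, at 1.25, 0.79 and 0.3 CPM per kilobase in parental cells with DMSO. Ctsh rested on 7 to 19 counts per library and Naglu on 74 to 167, whereas Lamp1 had 7892 to 9473.

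Promoter sequence is shown for some of the members whose values are given library by library below. RefSeq promoter windows (GRCm38.p6, 250 bases before to 50 after the start site) matched 31 of the 35 members. The motif CACGTG, which reads the same on both strands, was in a window of 11 of these 31 genes (35.5%), against 8.09% of all 27025 genes with a window. The longer TCACGTG, searched on both strands and containing CACGTG by construction, was in 10 (32.3%, against 4.29% of all genes), and CTTTGAT, on both strands, in 2, Npc2 and Lamp2 (6.45%, against 4.29%). Each stretch is given on the strand of its gene, 5′ to 3′. Capitals mark CACGTG, or CTTTGAT in Npc2, and the Cd63 stretch holds none of these motifs. Lamp1 is shown for its 4 copies, Naglu, Atp6v1a and Ctsl for 1 copy each at different distances, Ctsa for the copy before its start site (a further copy after it is not shown), and Cd63 and Npc2 as strongly responding genes without CACGTG in the window. The only Cd63 window lies inside the annotated gene, which starts at 128900989 on chromosome 10. Sequence around that annotated start was not searched. The printed stretches of Ctsa, Atp6v1a and Ctsl also lie inside their annotated genes, as does most of that of Naglu. For these genes the start site of the window is not the outermost annotated start.
Lamp1, chr8:13159061-13159160 (+): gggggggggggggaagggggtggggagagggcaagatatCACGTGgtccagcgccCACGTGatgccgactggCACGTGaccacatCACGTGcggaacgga
Naglu, chr11:101070009-101070038 (+): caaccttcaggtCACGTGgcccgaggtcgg
Ctsa, chr2:164833749-164833772 (+): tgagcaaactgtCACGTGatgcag
Atp6v1a, chr16:44139340-44139439 (-): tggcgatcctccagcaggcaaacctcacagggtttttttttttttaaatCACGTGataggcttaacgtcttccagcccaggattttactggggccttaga
Ctsl, chr13:64370739-64370768 (-): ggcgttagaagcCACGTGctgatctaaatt
Npc2, chr12:84773146-84773175 (-): gagataagagggCTTTGATtgacagagaac
Cd63, chr10:128909245-128909344 (+): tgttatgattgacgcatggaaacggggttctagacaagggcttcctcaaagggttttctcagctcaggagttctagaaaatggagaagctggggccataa

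With CHIR99021 the RNA of many of these genes was higher than with DMSO in both lines, by small amounts. In knock-out cells 15 of the 35 rose and 2 fell (42.9% and 5.71%), where 2.88% of all genes tested rose and 4.18% fell, 7.06% in all, by the same test, edgeR's quasi-likelihood F test with an adjusted p under 0.05. In parental cells 17 rose and 4 fell (48.6% and 11.4%), where 9.1% of all genes rose and 10.3% fell, 19.4% in all. The median log2 fold change of the 35 was 0.23 in knock-out cells and 0.15 in parental cells, against -0.003 and 0.004 over all genes tested. Only Cd63, and only in parental cells, passed the test with a change of more than 2-fold. The libraries did not overlap and were higher with CHIR99021 for 26 members in knock-out cells and 24 in parental cells, where 25.4% and 29.9% of all genes did the same. They were lower without overlap for 5 members in knock-out cells and 4 in parental cells, where 26.9% and 29.6% of all genes were.

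Most members are well expressed genes, and 32 of them, without Ctsh, Naglu and Sgsh, averaged at least 5 CPM over all 8 libraries, a limit chosen after the data were seen. By the same calls 14 of these 32 rose in knock-out cells and 17 in parental cells, against 4.39% and 12.1% of the 10786 genes at that level, while 2 and 4 fell, against 6.43% and 13.9%. With any single library left out, 9 to 15 members rose in knock-out cells and 13 to 17 in parental cells, against 0.654% to 2.77% and 4.74% to 9.28% of all genes. The lower ends of the member counts in knock-out cells were reached on leaving out single knock-out libraries: 10 members in all passed without CHIR99021 replicate 1, and 11 without CHIR99021 replicate 2 or DMSO replicate 1. The 2 CHIR99021 comparisons rest on different libraries, with 1 estimate of the spread for all 8. In them 12 members rose in both lines: Ctsb, Ctsd, Ctsl, Hexa, Neu1, Psap, Lamp2, Cd63, Npc2, Atp6v0a1, Atp6v1a and Atp6ap1. Manba fell in both, none passed in opposite directions, and 10 passed in neither.

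**Figure D1:**
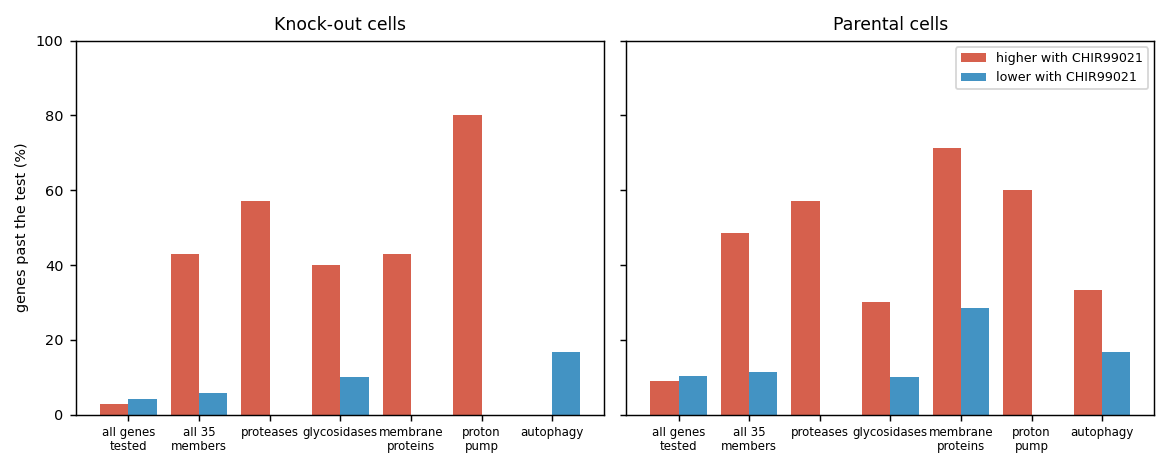
Share of genes past the test (%, bars) that were higher or lower with CHIR99021, among all genes tested, all 35 members and each class, in knock-out cells (left) and parental cells (right). Risers make up 42.9% and 48.6% of the members, against 2.88% and 9.1% of all genes.

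The share of risers was not higher among members with CACGTG in the promoter window. Of these 11 genes 4 rose in knock-out cells and 5 in parental cells, and of the 20 with a window but no such motif 9 and 11 did. None of the 11 fell in either line, while 2 of the 20 fell in knock-out cells and 3 in parental cells. The groups are small and the motif was counted as letters in a window, so the counts are a description. Cd63, whose window lies inside its annotated gene, is counted among the 20. Ctsa, Atp6v1a, Ctsl and Naglu, whose printed copies also lie inside their annotated genes, are counted among the 11.

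Of the 7 proteases 4 rose in each line and none fell, Ctsb, Ctsd and Ctsl rising in both, with a median log2 fold change of 0.36 in knock-out cells and 0.32 in parental cells. Ctsl, a cysteine cathepsin that cleaves proteins in the lysosome, had 170.8 and 171.3 CPM in knock-out cells with CHIR99021 and 113.1 and 107.7 CPM in knock-out cells with DMSO. In parental cells it had 162.4 and 165.0 CPM with CHIR99021 and 105.4 and 103.6 CPM with DMSO. All CHIR99021 libraries were above all DMSO libraries, and the fold change was almost equal in the lines: the log2 fold change was 0.63 ± 0.04 in knock-out cells (SE, adjusted p = 4.55e-05) and 0.65 ± 0.04 in parental cells (adjusted p = 1.08e-06). The difference between the responses was -0.02 ± 0.06 (SE, adjusted p = 0.914).

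Ctsb, another cysteine cathepsin, rose by 0.39 ± 0.05 (SE, log2 fold change) in knock-out cells and 0.55 ± 0.05 in parental cells. The gene overlaps Fdft1 on the opposite strand, which had log2 fold changes of -0.11 ± 0.04 in knock-out cells (adjusted p = 0.149) and 0.41 ± 0.04 in parental cells (adjusted p = 5.02e-05). The overlap is of whole gene spans, introns included. Reads of such a pair may be shared where exons overlap and the counting did not use strand. Exon overlap was not examined, and the strand setting is not given in the sources used here. Ctsd, the main aspartic cathepsin, rose by 0.20 ± 0.05 in knock-out cells (adjusted p = 0.0418) and 0.37 ± 0.05 in parental cells; its call in knock-out cells was lost on leaving out any single knock-out library or parental CHIR99021 replicate 2 (adjusted p = 0.0521 to 0.216). Ctsz, a carboxypeptidase-type cathepsin, rose in parental cells (log2 fold change 0.32 ± 0.06, SE) and had 0.21 ± 0.06 in knock-out cells (adjusted p = 0.0636). Tpp1, a tripeptidyl peptidase, rose in knock-out cells (0.36 ± 0.05, adjusted p = 0.00345) and had 0.10 ± 0.05 in parental cells (adjusted p = 0.212). None of the proteases passed the test for a difference between the lines' responses.

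Ctsa and Ctsh passed with CHIR99021 in neither line. Ctsa, a serine carboxypeptidase that also shields β-galactosidase and neuraminidase from degradation, had 50.4 and 47.3 CPM in knock-out cells with CHIR99021, 46.3 and 46.9 CPM in knock-out cells with DMSO, 68.1 and 68.7 CPM in parental cells with CHIR99021 and 62.7 and 63.2 CPM in parental cells with DMSO. The lines stood further apart than the treatments. Its log2 fold change with CHIR99021 was 0.07 ± 0.05 in knock-out cells and 0.12 ± 0.05 in parental cells (SE, adjusted p = 0.444 and 0.108). Ctsh, an aminopeptidase, had a log2 fold change of 1.02 ± 0.42 in knock-out cells (adjusted p = 0.174), at 0.267 to 0.675 CPM over all libraries.

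**Figure D2:**
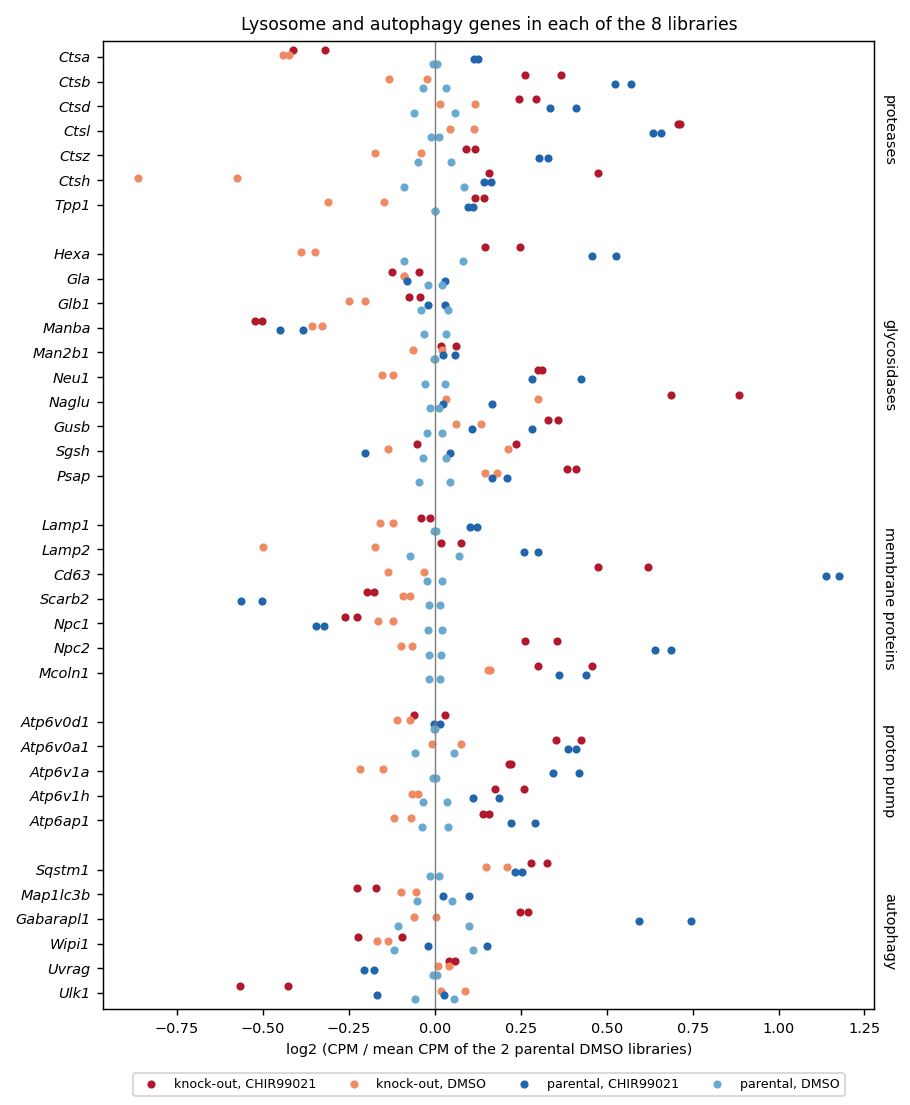
Each of the 35 genes in each of the 8 libraries, as log2 of its CPM over the mean CPM of the 2 parental DMSO libraries, with 1 point per library and the genes grouped by class. For Ctsl the 4 CHIR99021 libraries lie to the right of the 4 DMSO libraries, while for Ctsa the 4 knock-out libraries lie to the left of the parental ones.

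The glycosidases were more mixed. Of 10 genes 4 rose and 1 fell in knock-out cells, and 3 rose and 1 fell in parental cells, with median log2 fold changes of 0.20 and 0.07. Hexa, the α subunit of β-hexosaminidase, which breaks down gangliosides, had 44.9 and 41.9 CPM in knock-out cells with CHIR99021 against 28.9 and 29.7 CPM with DMSO, and 54.5 and 52 CPM in parental cells with CHIR99021 against 35.6 and 40.1 CPM with DMSO. It was higher with CHIR99021 in each line, by 0.57 ± 0.07 in knock-out cells (SE, log2 fold change, adjusted p = 0.00105) and 0.49 ± 0.07 in parental cells (adjusted p = 0.000332). Neu1, the sialidase that removes sialic acid, rose by 0.44 ± 0.07 in knock-out cells and 0.35 ± 0.07 in parental cells (SE), where its call was lost without parental CHIR99021 replicate 1 (adjusted p = 0.0516). Psap, the precursor of the saposins that help hydrolases reach lipids, rose by 0.23 ± 0.04 in knock-out cells and 0.19 ± 0.04 in parental cells. Its call in knock-out cells was lost without knock-out CHIR99021 replicate 1 (adjusted p = 0.0786), and that in parental cells without parental CHIR99021 replicate 1 or DMSO replicate 1 (adjusted p = 0.0717 and 0.107).

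Manba, the β-mannosidase, was the glycosidase that fell. It had 67.6 and 68.5 CPM in knock-out cells with CHIR99021 against 77.3 and 75.8 CPM with DMSO. In parental cells it had 71.1 and 74.4 CPM with CHIR99021 against 99.3 and 95 CPM with DMSO. Libraries did not overlap in either line, and the gap was wider in parental cells. The log2 fold change was -0.17 ± 0.05 in knock-out cells (SE, adjusted p = 0.0478) and -0.42 ± 0.05 in parental cells (adjusted p = 6.92e-05), and the responses differed by 0.25 ± 0.06 (adjusted p = 0.0478). The fall in knock-out cells and the difference were both lost on leaving out any single one of the 8 libraries, with adjusted p = 0.0593 to 0.217 and 0.0656 to 0.173.

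Naglu, which removes N-acetylglucosamine from heparan sulfate, had 5.93 and 5.17 CPM in knock-out cells with CHIR99021 against 3.95 and 3.28 CPM with DMSO, and 3.26 and 3.6 CPM in parental cells with CHIR99021 against 3.18 and 3.24 CPM with DMSO. The knock-out libraries with CHIR99021 were above all others. It rose by 0.62 ± 0.15 (SE, log2 fold change) in knock-out cells (adjusted p = 0.0354), had 0.09 ± 0.17 in parental cells (adjusted p = 0.75), and the difference did not pass (0.52 ± 0.23, adjusted p = 0.217). The call was lost on leaving out any single knock-out library (adjusted p = 0.0833 to 0.209). The β-glucuronidase Gusb had log2 fold changes of 0.24 ± 0.07 in knock-out cells and 0.20 ± 0.07 in parental cells (adjusted p = 0.0692 and 0.0853). The β-galactosidase Glb1 had 0.17 ± 0.05 and 0.007 ± 0.05 in the same order. The α-galactosidase Gla, the α-mannosidase Man2b1 and the sulfamidase Sgsh had between -0.07 and 0.06 in the 2 lines, with no call.

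All 7 membrane proteins passed in parental cells, 5 of them higher and 2 lower, and 3 rose in knock-out cells with none lower. This class held 3 of the 5 members whose responses differed between the lines. Cd63, a tetraspanin of late endosomes and exosomes, had 50.7 and 45.9 CPM in knock-out cells with CHIR99021 against 32.3 and 30 CPM with DMSO. In parental cells it had 74.6 and 72.6 CPM with CHIR99021 against 32.5 and 33.5 CPM with DMSO. The lines were close in DMSO and apart with CHIR99021. It rose by 0.63 ± 0.06 (SE, log2 fold change) in knock-out cells (adjusted p = 0.000492) and 1.16 ± 0.06 in parental cells (adjusted p = 3.32e-07), and the response in knock-out cells was smaller by the test of the difference (-0.52 ± 0.09, adjusted p = 0.00458).

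Npc2, which binds cholesterol in the lumen and hands it to the membrane protein Npc1, followed the same order. It had 106.2 and 99.6 CPM in knock-out cells with CHIR99021 against 77.5 and 79.2 CPM with DMSO, and 133.7 and 129.5 CPM in parental cells with CHIR99021 against 82 and 84 CPM with DMSO. CHIR99021 libraries were above DMSO libraries in each line, and the parental ones were the highest. The rise was 0.39 ± 0.05 in knock-out cells (SE, log2 fold change, adjusted p = 0.000937) and 0.66 ± 0.05 in parental cells (adjusted p = 1.97e-06). The difference of -0.27 ± 0.06 (adjusted p = 0.0301) was lost on leaving out any single library other than knock-out CHIR99021 replicate 1 (adjusted p = 0.0542 to 0.158). Npc1 went the other way in parental cells, where it fell (-0.33 ± 0.06, adjusted p = 0.002), and had -0.10 ± 0.06 in knock-out cells (adjusted p = 0.323).

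Scarb2, the receptor that carries β-glucocerebrosidase to the lysosome, had 68.9 and 69.9 CPM in knock-out cells with CHIR99021 against 74.1 and 75.1 CPM with DMSO. In parental cells it had 53.4 and 55.7 CPM with CHIR99021 against 79.8 and 78.1 CPM with DMSO. The parental CHIR99021 libraries were the lowest of the 8. It fell in parental cells (log2 fold change -0.53 ± 0.05, SE, adjusted p = 9.92e-06), had -0.10 ± 0.04 in knock-out cells (adjusted p = 0.182), and the responses differed (0.43 ± 0.06, adjusted p = 0.00195).

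Lamp1 had 335.2 and 328.7 CPM in knock-out cells with CHIR99021 against 310.7 and 302.9 CPM with DMSO, and 362.9 and 368.4 CPM in parental cells with CHIR99021 against 338.8 and 337.6 CPM with DMSO. Within each line the CHIR99021 libraries lay a little above the DMSO libraries, and within each treatment the knock-out libraries lay below the parental ones. The log2 fold change with CHIR99021 was 0.11 ± 0.04 in each line, past the test in parental cells (adjusted p = 0.0463) and not in knock-out cells (adjusted p = 0.0813). Lamp2, which also serves in chaperone-mediated autophagy, rose by 0.38 ± 0.09 in knock-out cells and 0.28 ± 0.09 in parental cells (SE, adjusted p = 0.0307 and 0.0487). On leaving out either knock-out CHIR99021 library or any single parental library the calls of Lamp1 and Lamp2 in parental cells were lost (adjusted p = 0.0713 to 0.26), and that of Lamp2 in knock-out cells was lost without either knock-out CHIR99021 library or DMSO replicate 1 (adjusted p = 0.127 to 0.186). The lysosomal calcium channel Mcoln1 rose in parental cells (0.40 ± 0.07, adjusted p = 0.00183) and had 0.23 ± 0.07 in knock-out cells (adjusted p = 0.0698).

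**Figure D3:**
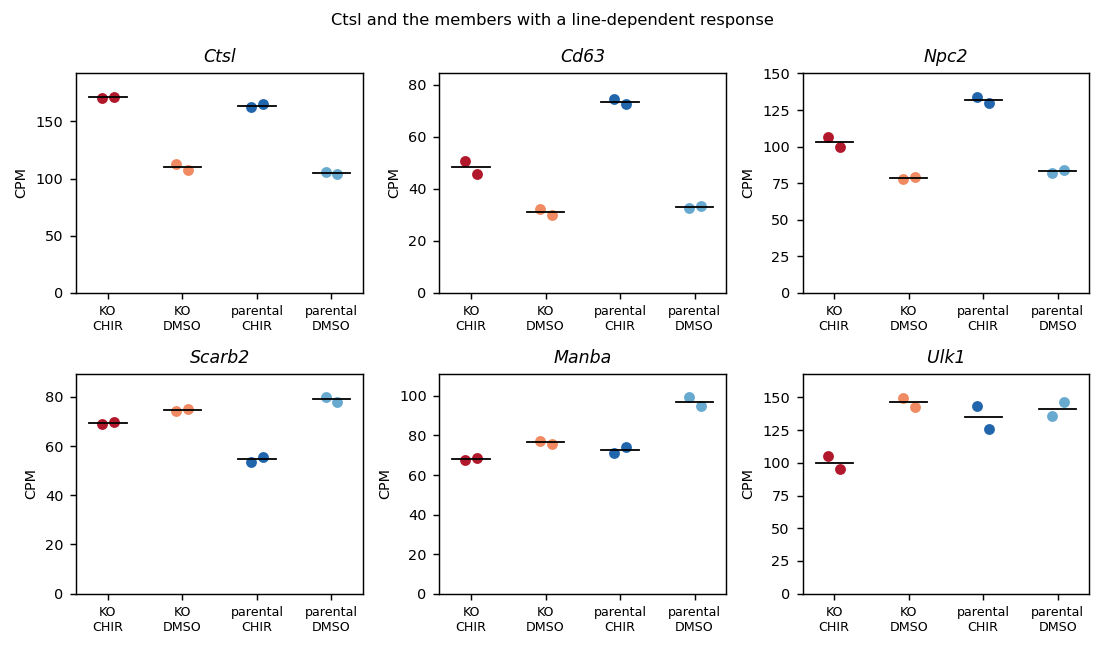
CPM of Ctsl and of the 5 members whose response to CHIR99021 differed between the lines, with 1 point per library and a line at the mean of 2, for knock-out (KO) cells with CHIR99021 and DMSO and parental cells with CHIR99021 and DMSO. Cd63 reaches 74.6 and 72.6 CPM in parental cells with CHIR99021, Scarb2 is lowest there at 53.4 and 55.7 CPM, and Ulk1 is lowest in knock-out cells with CHIR99021 at 105.0 and 95.3 CPM.

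Of the 5 proton pump subunits here 4 rose in knock-out cells and 3 in parental cells, and none fell. Atp6v0a1, Atp6v1a and Atp6ap1 rose in both lines. Atp6v1a, the catalytic subunit that hydrolyses ATP, had 180.3 and 181.2 CPM in knock-out cells with CHIR99021 against 133.6 and 140.0 CPM with DMSO, and 197.1 and 207.5 CPM in parental cells with CHIR99021 against 155.8 and 154.8 CPM with DMSO. Each CHIR99021 library was above every DMSO library. Atp6v0a1, a membrane subunit of the proton channel, had 57.5 and 54.7 CPM in knock-out cells with CHIR99021 against 42.6 and 45.2 CPM with DMSO, and 56 and 57 CPM in parental cells with CHIR99021 against 41.2 and 44.5 CPM with DMSO. It too was higher in every CHIR99021 library.

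The log2 fold change of Atp6v1a was 0.40 ± 0.04 in knock-out cells (SE, adjusted p = 0.000538) and 0.38 ± 0.04 in parental cells (adjusted p = 7.32e-05), and that of Atp6v0a1 was 0.35 ± 0.06 (adjusted p = 0.00476) and 0.40 ± 0.06 (adjusted p = 0.000556). Without knock-out CHIR99021 replicate 1 the call of Atp6v0a1 in knock-out cells was lost (adjusted p = 0.0624). The accessory subunit Atp6ap1 rose by 0.24 ± 0.05 in knock-out cells and 0.26 ± 0.05 in parental cells. Its call in knock-out cells was lost on leaving out any single knock-out library (adjusted p = 0.0615 to 0.118), and that in parental cells without parental DMSO replicate 1 (adjusted p = 0.0579). Atp6v1h, a regulatory subunit, rose in knock-out cells (0.27 ± 0.05, adjusted p = 0.00744, lost without CHIR99021 replicate 2 or DMSO replicate 1 at adjusted p = 0.0509 to 0.0901) and had 0.15 ± 0.05 in parental cells (adjusted p = 0.0502). Atp6v0d1, which joins the membrane and cytoplasmic parts, had 0.08 ± 0.04 in knock-out cells and 0.007 ± 0.04 in parental cells. No pump subunit passed the test for a difference between the lines, with estimates from -0.04 to 0.13.

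**Figure D4:**
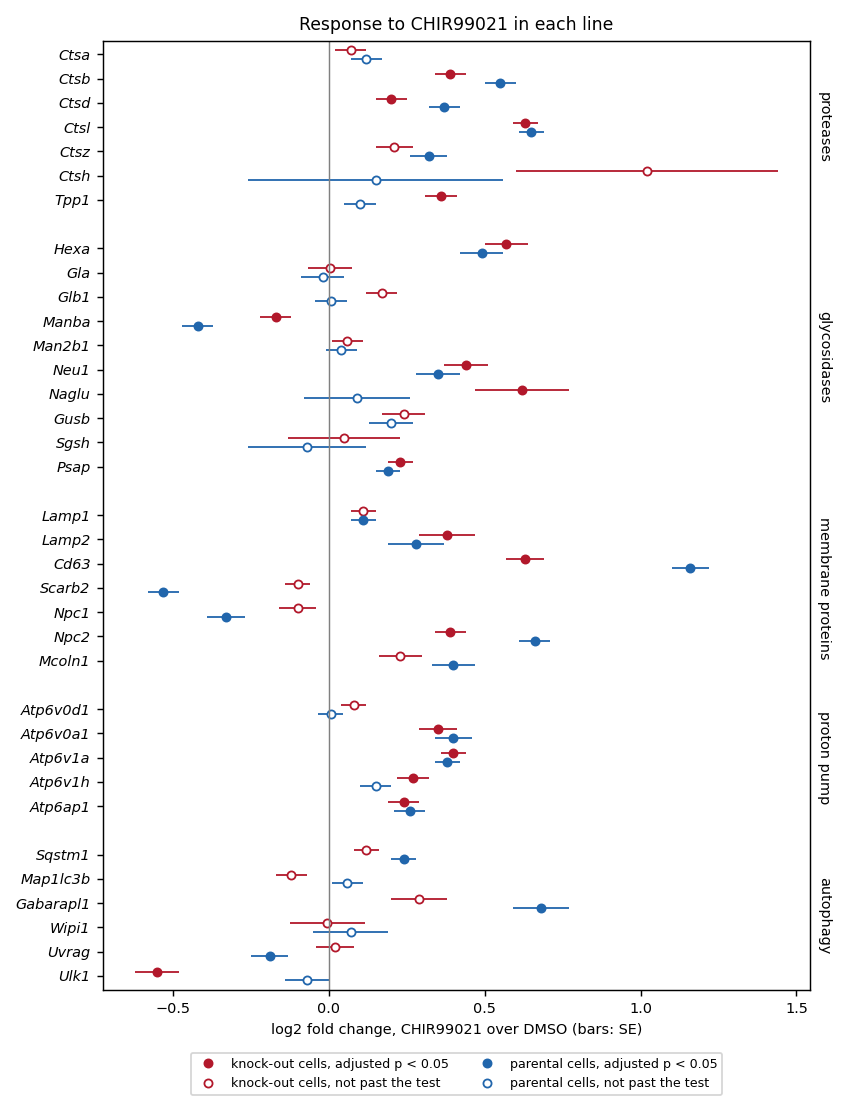
Log2 fold change with CHIR99021 over DMSO for each gene, with SE bars, in knock-out cells and parental cells; filled points passed the test at an adjusted p under 0.05. Points of the 2 lines lie close for Ctsl, Atp6v1a and Psap and apart for Cd63, Scarb2 and Ulk1.

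Of the 6 autophagy genes none rose and 1 fell in knock-out cells (0% and 16.7%, against 2.88% and 4.18% of all genes). In parental cells 2 rose and 1 fell (33.3% and 16.7%, against 9.1% and 10.3% of all genes). The median log2 fold changes were 0.009 in knock-out cells and 0.06 in parental cells. With so few genes the absence of risers in knock-out cells does not set this class apart from all genes. Classes were not tested against each other. Gabarapl1, which is attached to autophagosome membranes and binds cargo receptors, had 12.2 and 12.4 CPM in knock-out cells with CHIR99021 against 10.3 and 9.84 CPM with DMSO, and 17.2 and 15.5 CPM in parental cells with CHIR99021 against 11 and 9.54 CPM with DMSO. The parental CHIR99021 libraries were the highest. It rose in parental cells (log2 fold change 0.68 ± 0.09, SE, adjusted p = 0.000439) and had 0.29 ± 0.09 in knock-out cells (adjusted p = 0.0974), without a called difference (-0.39 ± 0.13, adjusted p = 0.125). Map1lc3b, of the same protein family, had -0.12 ± 0.05 in knock-out cells and 0.06 ± 0.05 in parental cells.

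Sqstm1, the cargo receptor p62 that is itself degraded by autophagy, had 95 and 92.1 CPM in knock-out cells with CHIR99021 against 87.7 and 84 CPM with DMSO, and 90.3 and 89.1 CPM in parental cells with CHIR99021 against 75.1 and 76.5 CPM with DMSO. The parental DMSO libraries were the lowest. Its log2 fold change was 0.12 ± 0.04 in knock-out cells (SE, adjusted p = 0.109) and 0.24 ± 0.04 in parental cells (adjusted p = 0.00246). With a filter of at least 5 CPM in 2 libraries the same test called it higher in knock-out cells too (adjusted p = 0.0422).

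Ulk1, the kinase that starts autophagosome formation, had 105.0 and 95.3 CPM in knock-out cells with CHIR99021 against 149.8 and 142.8 CPM with DMSO. In parental cells it had 143.8 and 125.6 CPM with CHIR99021 against 135.5 and 146.6 CPM with DMSO, and these libraries overlapped. It fell in knock-out cells (log2 fold change -0.55 ± 0.07, SE, adjusted p = 0.00149) and had -0.07 ± 0.07 in parental cells (adjusted p = 0.566). The responses differed by -0.48 ± 0.10 (adjusted p = 0.0142), a call lost without knock-out CHIR99021 replicate 2, knock-out DMSO replicate 1, parental CHIR99021 replicate 1 or parental DMSO replicate 1 (adjusted p = 0.0572 to 0.078). Uvrag, which works in a lipid kinase complex of autophagy, fell in parental cells (-0.19 ± 0.06, adjusted p = 0.0378). That call was lost on leaving out any single parental library or either knock-out CHIR99021 library. In knock-out cells Uvrag had 0.02 ± 0.06. Wipi1, which binds the forming membrane, had -0.005 ± 0.12 in knock-out cells and 0.07 ± 0.12 in parental cells.

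Tests of the difference in response between the lines thus passed for 5 of 35 members, 2 with a more positive response in knock-out cells (Scarb2 and Manba) and 3 with a more negative one (Cd63, Npc2 and Ulk1). Of all genes tested 3.22% and 2.91% passed in these directions, 6.13% in all. The median difference over the 35 was 0.02 on the log2 scale, against -0.001 over all genes. Of the 12 members that rose in both lines, 10 did not pass for a difference, which does not show that their responses were equal. Without 1 library 2 to 4 members passed; 2 did so without knock-out CHIR99021 replicate 2, knock-out DMSO replicate 1, parental CHIR99021 replicate 1 or parental DMSO replicate 1, and 3 without parental CHIR99021 replicate 2 or DMSO replicate 2. Cd63 and Scarb2 passed in each of these.

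Fewer members, and a smaller share of all genes, passed between the lines with DMSO than with CHIR99021. With DMSO 2 members were higher and 7 lower in knock-out cells than in parental cells (5.71% and 20%, where 3.13% and 3.62% of all genes were, 6.75% in all). With CHIR99021 4 were higher and 11 lower (11.4% and 31.4%, where 11.2% and 12.5% of all genes were, 23.7% in all). The median log2 fold change of knock-out over parental cells was -0.08 with DMSO and -0.06 with CHIR99021. These comparisons use the same libraries as those above, so their values are not independent of the responses.

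Ctsa was lower in knock-out cells with either treatment, by 0.43 ± 0.05 on the log2 scale with DMSO (SE, adjusted p = 0.000619) and 0.48 ± 0.05 with CHIR99021 (adjusted p = 3.66e-05). Its log2 fold change was the largest among the called proteases in each of these comparisons. Hexa was lower by 0.37 ± 0.07 with DMSO and 0.30 ± 0.06 with CHIR99021 (adjusted p = 0.00942 and 0.00685), and its knock-out libraries with DMSO were the lowest of the 8. Manba was lower in knock-out cells with DMSO (-0.34 ± 0.05, adjusted p = 0.00166) and had -0.10 ± 0.05 with CHIR99021 (adjusted p = 0.156). Atp6v1a and Lamp1 were lower with either treatment: the log2 fold change of Atp6v1a was -0.18 ± 0.04 with DMSO and -0.16 ± 0.04 with CHIR99021, and that of Lamp1 was -0.14 ± 0.04 with each. Psap was higher with either, by 0.16 ± 0.04 with DMSO and 0.21 ± 0.04 with CHIR99021 (adjusted p = 0.0434 and 0.00427).

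With DMSO alone Tpp1 (-0.23 ± 0.05) and Glb1 (-0.22 ± 0.05) passed as lower and Sqstm1 (0.18 ± 0.04) as higher. Of the 9 calls with DMSO, Ctsa and Manba held without each library and under all other settings tried. Lamp1, Psap and Sqstm1 lost theirs on leaving out any single one of the 8 libraries (adjusted p = 0.0501 to 0.306), so that no member was called higher in any of these. Glb1, Tpp1, Atp6v1a and Hexa lost theirs without 6, 5, 4 and 2 of the libraries, in each case including knock-out DMSO replicate 1 and parental DMSO replicate 2 (adjusted p = 0.0517 to 0.23). Lamp2 (-0.33 ± 0.09, adjusted p = 0.0575) did not pass. With all libraries its call was gained with DESeq2 (adjusted p = 0.0372) and with edgeR and no filter beyond 1 read (adjusted p = 2.69e-05). Its log2 fold change was -0.50 without knock-out DMSO replicate 2. That library had 38.5 CPM of Lamp2, against 30.7 CPM in its replicate.

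With CHIR99021 alone Cd63 (log2 fold change -0.61 ± 0.06, SE), Npc2 (-0.35 ± 0.04), Ulk1 (-0.43 ± 0.07), Gabarapl1 (-0.41 ± 0.09), Map1lc3b (-0.26 ± 0.05), Ctsb (-0.23 ± 0.05) and Ctsz (-0.21 ± 0.06) passed as lower in knock-out cells. Naglu (0.70 ± 0.16), Scarb2 (0.35 ± 0.05) and Uvrag (0.24 ± 0.06) passed as higher. Lamp2 (-0.23 ± 0.09, adjusted p = 0.0816) did not pass. By edgeR it passed as lower with no filter beyond 1 read (adjusted p = 0.00287) and in the compared groups alone (adjusted p = 0.0124). Of the 15 calls with CHIR99021, those of Cd63, Ctsa, Map1lc3b, Npc2, Psap, Scarb2 and Ulk1 held without each library and under all other settings. With DESeq2 Ctsz, Gabarapl1, Naglu and Uvrag lost their calls (adjusted p = 0.0552 to 0.0977). Without knock-out CHIR99021 replicate 2 Atp6v1a, Ctsb, Ctsz, Hexa, Lamp1 and Uvrag lost theirs (adjusted p = 0.0579 to 0.134), which left 9. Without knock-out CHIR99021 replicate 1 Atp6v1a, Ctsz, Lamp1 and Naglu did (adjusted p = 0.0531 to 0.0854). Without parental CHIR99021 replicate 1 it was Ctsz, Gabarapl1, Hexa, Lamp1 and Naglu (adjusted p = 0.0528 to 0.104), and without parental CHIR99021 replicate 2 Atp6v1a, Ctsb, Ctsz, Lamp1 and Uvrag (adjusted p = 0.0584 to 0.118).

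**Figure D5:**
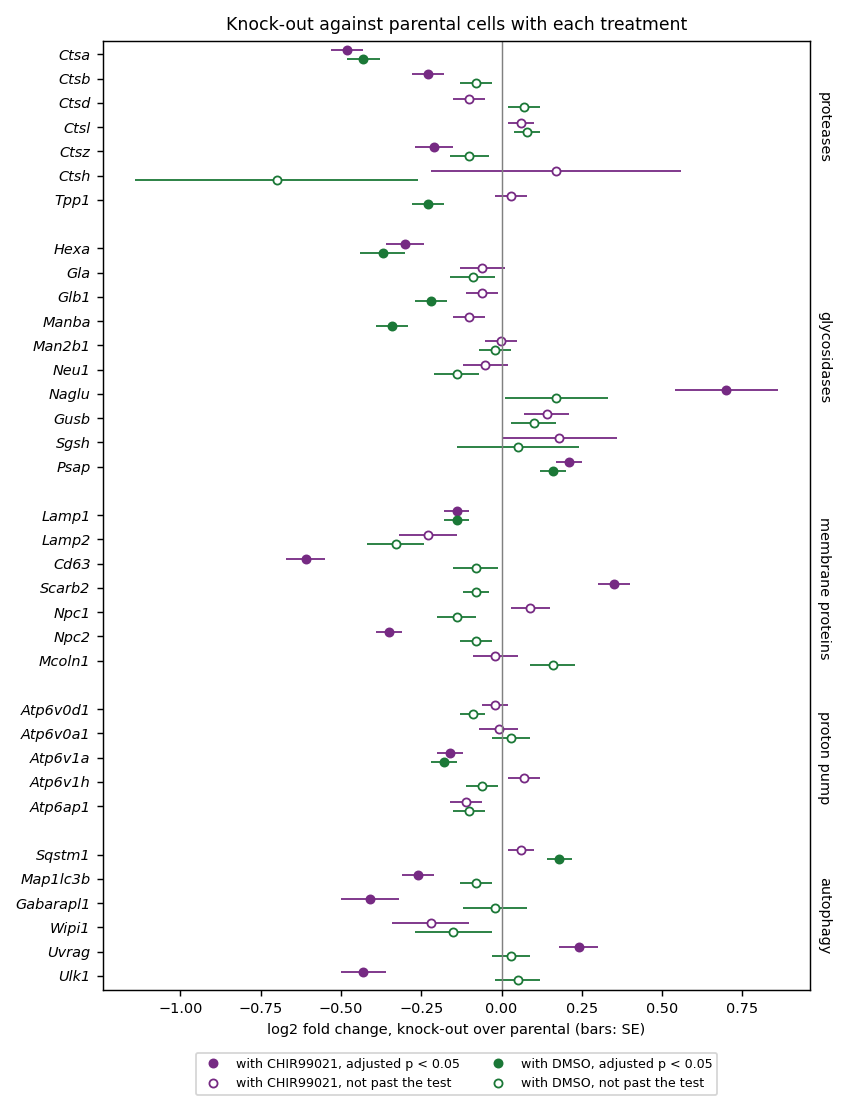
Log2 fold change of knock-out over parental cells for each gene, with SE bars, with CHIR99021 and with DMSO; filled points passed the test at an adjusted p under 0.05. Ctsa, Hexa, Lamp1 and Atp6v1a lie left of 0 and filled with either treatment, while Cd63 and Npc2 do so only with CHIR99021 and Scarb2 lies right of 0 there.

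Other genes of the same organelle were counted from lists chosen by function. The lists were drawn up with earlier results of these data known, so their counts are a description. Of 35 tested hydrolases that are not members, 5 rose and 1 fell in knock-out cells (14.3% and 2.86%, against 2.88% and 4.18% of all genes) and 11 rose and 1 fell in parental cells (31.4% and 2.86%, against 9.1% and 10.3%). The largest change was in Ctsc, a dipeptidyl peptidase that activates serine proteases of immune cells, which had 13 and 12.1 CPM in knock-out cells with CHIR99021 against 7.36 and 6.94 CPM with DMSO, and 45.7 and 50.9 CPM in parental cells with CHIR99021 against 8.07 and 8.76 CPM with DMSO. It rose in both lines, by 0.81 ± 0.09 (SE, log2 fold change) in knock-out cells (adjusted p = 0.000838) and 2.52 ± 0.08 in parental cells (adjusted p = 1.23e-08), and the responses differed by -1.71 ± 0.13 (adjusted p = 1.53e-05). The acid α-glucosidase Gaa rose by 0.28 ± 0.04 and 0.38 ± 0.05 and the acid ceramidase Asah1 by 0.44 ± 0.06 and 0.37 ± 0.06, in knock-out and parental cells in that order. Ctsf, another cathepsin, fell, with log2 fold changes of -0.37 ± 0.09 in knock-out cells and -0.76 ± 0.09 in parental cells. Hyal2, a hyaluronidase, rose in parental cells (0.62 ± 0.07) and had 0.03 ± 0.07 in knock-out cells, with a called difference of -0.59 ± 0.09 (adjusted p = 0.00329).

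Of 27 other lysosomal membrane proteins 3 rose and none fell in knock-out cells (11.1% and 0%, against 2.88% and 4.18% of all genes), and 6 rose and 2 fell in parental cells (22.2% and 7.41%, against 9.1% and 10.3%). Mfsd1, a transporter of the lysosomal membrane, rose by 0.40 ± 0.05 and 0.38 ± 0.05 (SE, log2 fold change), and Laptm4b by 0.43 ± 0.06 and 0.37 ± 0.06, in knock-out and parental cells in that order. Ostm1, the partner of the chloride transporter of lysosomes, fell in parental cells (-0.43 ± 0.09). Of 15 other V-ATPase subunits 2 rose and none fell in knock-out cells (13.3% and 0%), and 4 rose and 1 fell in parental cells (26.7% and 6.67%), against the same shares of all genes. Atp6ap2, an accessory subunit, rose by 0.39 ± 0.05 in knock-out cells and 0.19 ± 0.05 in parental cells.

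Of 41 other autophagy genes none rose and 8 fell in knock-out cells (0% and 19.5%, against 2.88% and 4.18% of all genes), and 3 rose and 6 fell in parental cells (7.32% and 14.6%, against 9.1% and 10.3%). Atg14 and Pik3c3, parts of the lipid kinase complex that starts the autophagosome, fell in both lines: Atg14 had log2 fold changes of -0.27 ± 0.05 in knock-out cells and -0.31 ± 0.05 in parental cells, and Pik3c3 -0.24 ± 0.05 and -0.26 ± 0.05. Gabarapl2, of the family of Gabarapl1, rose in parental cells (0.40 ± 0.04, adjusted p = 7.07e-05) and had 0.08 ± 0.04 in knock-out cells, with a called difference of -0.32 ± 0.06 (adjusted p = 0.0105). Among 14 genes that sort enzymes to the lysosome, 2 rose and none fell in knock-out cells (14.3% and 0%) and 3 rose and 1 fell in parental cells (21.4% and 7.14%), against the same shares of all genes. The mannose 6-phosphate receptor Igf2r rose by 0.19 ± 0.04 and 0.24 ± 0.04 in knock-out and parental cells in that order, and Sort1, another sorting receptor, fell in parental cells (-0.50 ± 0.08).

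Of 14 regulators of lysosomal genes 1 rose and 3 fell in knock-out cells (7.14% and 21.4%, against 2.88% and 4.18% of all genes), and 1 rose and 4 fell in parental cells (7.14% and 28.6%, against 9.1% and 10.3%). The RNA of the transcription factors Tfeb and Tfe3 fell: Tfeb had -0.38 ± 0.07 in knock-out cells and -0.29 ± 0.07 in parental cells, and Tfe3 -0.31 ± 0.05 and -0.26 ± 0.05. Rragd, a small GTPase of the lysosomal surface, rose by 0.43 ± 0.06 and 0.87 ± 0.06 (SE, log2 fold changes).

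By the annotation the spans of 12 of the 35 members, introns included, overlap the span of another tested gene. For 10 members such a gene lies on the opposite strand. For 3 it lies on the same strand: Ctsd with Gm49369, Glb1 with Tmppe, and Map1lc3b with Gm20388. Map1lc3b has a partner on each strand. Overlap of exons was not examined. Besides Ctsb these include Ctsa with Pltp, which had log2 fold changes with CHIR99021 of 0.54 ± 0.06 in knock-out cells and 0.41 ± 0.06 in parental cells (SE), and Lamp1 with Grtp1, which had -0.05 ± 0.05 and -0.24 ± 0.05 in the same order. Whether reads were shared within these pairs was not tested.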

How the data were processed

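The authors deposited 1 table of estimated counts per gene for the 8 libraries, made with kallisto (version not stated) on GRCm38.p4, per the submitters' processing notes. The transcript set and the strand setting are not given in the sources used here. Libraries were TruSeq Stranded mRNA, per the labels' protocols. Columns were matched to samples by title. Between 36.9% and 38.4% of a library's entries were not whole numbers; they were rounded. Totals of 23650572 to 27680649 estimated counts per library set the precision.

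Genes were kept with edgeR 4.0.16 filterByExpr (at least 10 counts, 15 in total), scaled by trimmed-mean (TMM) factors and fitted with 1 mean per group over all 8 libraries (4 residual degrees of freedom). The quasi-likelihood F test was 2-sided, with Benjamini-Hochberg adjustment over all 17739 genes and a threshold of 0.05. Log2 fold changes carry an SE of their size over the root of F. CPM are counts over the scaled library size, times 1000000. Coordinates and transcript lengths came from GENCODE M21 and promoters from RefSeq (GRCm38.p6). The fitting code was tested on simulated data. Alternatives were DESeq2 1.42.0, limma-voom 3.58.1, other size factors and filters, the compared groups alone, a replicate block, and leaving out each library.

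The members, gene lists and tests were chosen with earlier results of these data known. Values per library are given for members that pass in some comparison with the largest change of their class there, and for those that pass for a difference between lines; of each other list, genes with the smallest adjusted p are named. A gene that this rule names is not reported here.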

Additional observations from a re-analysis of the deposited data

Results flagged for a closer look

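For 5 members the response to CHIR99021 differed between the lines by the interaction term of edgeR's quasi-likelihood fit, given as the response in knock-out cells minus that in parental cells on the log2 scale. The difference was -0.52 ± 0.09 (SE, adjusted p = 0.00458) for Cd63 and 0.43 ± 0.06 (adjusted p = 0.00195) for Scarb2. It was -0.48 ± 0.10 (adjusted p = 0.0142) for Ulk1, -0.27 ± 0.06 (adjusted p = 0.0301) for Npc2 and 0.25 ± 0.06 (adjusted p = 0.0478) for Manba. Only the calls of Cd63 and Scarb2 held under all alternatives. With DESeq2 those of Manba and Npc2 were lost (adjusted p = 0.144 and 0.0563). All parental and all knock-out libraries of Cd63 and Npc2 were higher with CHIR99021, all of Scarb2 and Manba were lower, and those of Ulk1 overlapped in parental cells.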

How the results depend on the processing

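No called result changed sign under any alternative; fold changes called under neither setting changed sign in 8 cases in knock-out cells and 11 in parental cells with CHIR99021, 7 between the lines in DMSO, 16 between them in CHIR99021 and 24 for the difference between responses. Calls of members that held under all alternatives numbered 9 of 17 in knock-out cells and 15 of 21 in parental cells with CHIR99021, 2 of 9 between the lines in DMSO, 7 of 15 between them in CHIR99021, and 2 of 5 for the difference between responses. With a stricter filter, at least 5 CPM in 2 libraries, Ctsz, Glb1, Gusb, Lamp1, Mcoln1 and Sqstm1 were also called in knock-out cells (adjusted p = 0.0281 to 0.0476); Ctsh and Sgsh had no value there. The cause of these changes was not tested.

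DESeq2 called 2205 genes for CHIR99021 in parental cells (3441 in edgeR), 795 (1198) between the lines in DMSO, 2709 (4200) between them in CHIR99021, and 3 members (5) for the difference between responses. Without a filter beyond 1 read edgeR called 2167 genes (1252) in knock-out cells, 2064 (1198) between the lines in DMSO and 1990 (1087) for the difference. In the compared groups alone 3 members (9) were called between the lines in DMSO; this fit was not possible for the difference.

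Leaving out 1 library at a time, with a lone library assumed to vary like the other groups, called 10 to 16 members and 307 to 1237 genes in knock-out cells with CHIR99021, 16 to 21 and 2057 to 3507 in parental cells, 2 to 6 and 357 to 1047 between the lines in DMSO, 9 to 16 and 2509 to 4353 between them in CHIR99021, and 2 to 4 and 605 to 1143 for the difference. The replicate numbers are not said to pair samples, and the replicate differences of the groups correlated at -0.0561 to 0.104. With the replicate block 17, 19, 8, 15 and 4 members and 1313, 3434, 1225, 4296 and 1135 genes were called in the same order; the block ended the calls of Lamp1 and Lamp2 in parental cells (adjusted p = 0.0584 and 0.0512), Manba in knock-out cells and for the difference (0.0581 and 0.0598) and Psap between the lines in DMSO (0.0558), and added Ctsz in knock-out cells (0.0388). Other size factors moved the median of all genes by at most 0.0026 on the log2 scale.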
